A study of Homo sapiens with 6 samples.

Results

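Zinc enters the cytosol through ZIP carriers, encoded by SLC39A genes, and leaves it through ZnT carriers, encoded by SLC30A genes. Each carrier works at its own membrane, the cell surface or that of an organelle, so importers include those that release zinc from stores and exporters include those that load vesicles. Normal prostate epithelium holds far more zinc than other soft tissues, which goes together with an accumulation of citrate, and prostate cancer cells lose this zinc.

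The genes described are 10 zinc transporters, the 6 importers SLC39A1, SLC39A6, SLC39A7, SLC39A8, SLC39A10 and SLC39A14 and the 4 exporters SLC30A1, SLC30A4, SLC30A5 and SLC30A9, chosen by symbol from the 35554 genes of the count table. RNA sequencing was carried out on parental LNCaP cells (n = 3), an established androgen-sensitive line from a metastasis of human prostate cancer, and on LNCaP-enzaR cells (n = 3), a derivative of the same line selected by continuous culture with enzalutamide, an antagonist of the androgen receptor, and then kept on less of it. Each library came from 1 flask harvested before confluence, each line has 1 culture history, and the sources used here do not state if enzalutamide was present when the flasks were harvested. Tests therefore measure the spread between flasks of 1 selected and 1 parental culture.

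Libraries held 77759122 to 98616465 counts, and mitochondrial transcripts took 6.72% to 7.06% of the counts in parental and 14.7% to 15.5% in LNCaP-enzaR libraries. All 10 luminal prostate markers were above 1 CPM (counts per 1000000, scaled by TMM), and 3 of 11 markers of other cell types were, with summed levels of 21.0 to 24.3 CPM in parental and 17.5 to 18.4 CPM in LNCaP-enzaR libraries. No 2 libraries were duplicates. LNCaP-enzaR replicate 1 stood apart from replicates 2 and 3, with a chi-square of the counts of 40.8 and 32.4 per degree of freedom against 7.50 between those replicates and 5.90 to 9.92 between parental libraries. Where a call was lost without it, the value without it is given.

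All 10 transporters passed the filter on low counts. A gene was called, here and below, when its Benjamini-Hochberg adjusted p over 19711 genes (edgeR quasi-likelihood test) did not exceed 0.05 and its fold reached 1.5. Past this threshold, SLC39A8, SLC30A1 and SLC30A4 were higher in LNCaP-enzaR, SLC39A6 and SLC39A14 were lower, and 5 did not pass. Of all genes tested, 42.7% were past this threshold, 23.3% in the higher and 19.5% in the lower direction, so 5 of 10 is near the background. At an adjusted p of at most 0.05 with no minimum fold, 8 of 10 transporters passed, against 66.3% of all genes. CPM values of the lines did not overlap for 8 of 10, against 70.6% of all genes. The median log2 fold change was −0.35 over the 6 importers, 0.53 over the 4 exporters and 0.01 over all genes tested. Over all 12 importers and all 9 exporters of the family that were tested it was −0.02 and 0.29. In bulk RNA, fewer cells with a transcript and less transcript per cell cannot be told apart.

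**Figure D1:**
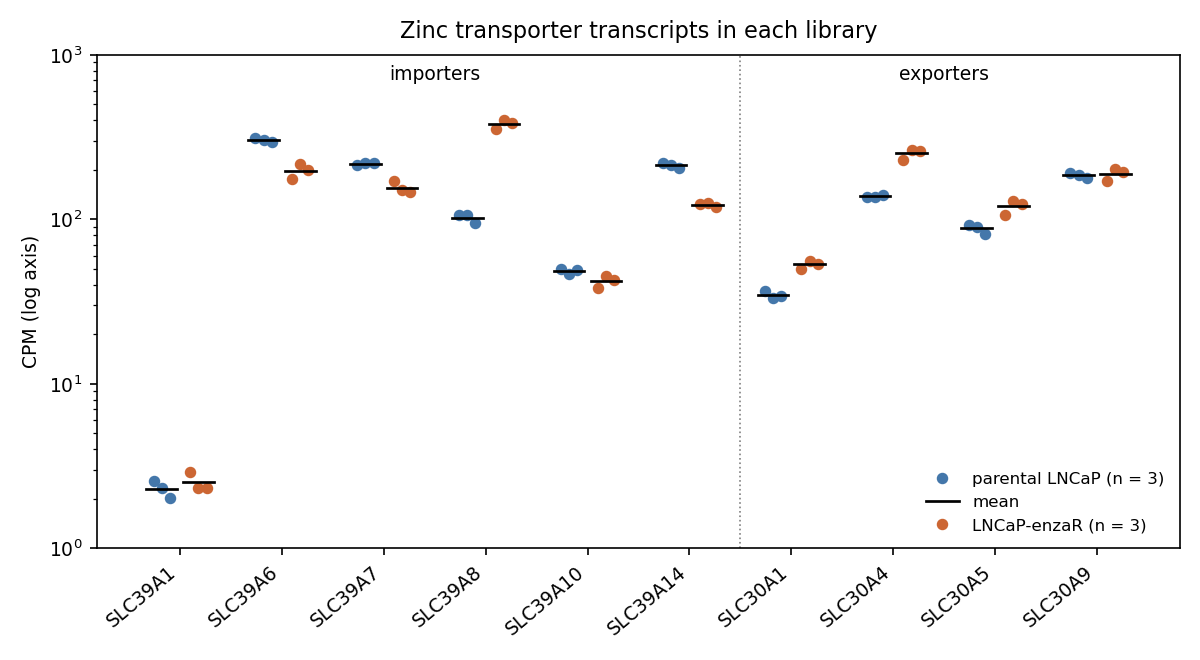
CPM on a log axis for the 10 transporters in each library, with 3 parental (blue) and 3 LNCaP-enzaR (orange) points per gene and a bar at the mean. SLC39A8 and the exporters SLC30A1, SLC30A4 and SLC30A5 sat higher in all 3 LNCaP-enzaR libraries, SLC39A6, SLC39A7, SLC39A10 and SLC39A14 sat lower, and SLC39A1 and SLC30A9 overlapped.

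Promoters are shown for 4 of the 5 transporters past the threshold, to let the metal response element be read in them. This element is the site bound by MTF1, the zinc-sensing transcription factor, and its core was searched as TGCACNC and TGCGCNC on both strands in RefSeq windows (GRCh38.p14) from 250 bases before to 50 bases after each annotated start. Windows were found for 9 of the 10 transporters. Matches are in capitals, and the 2 matches of SLC30A1 do not overlap each other. Each sequence reads along its gene's strand, which is the minus strand for these 4.
SLC30A1, chr1:211579112-211579411: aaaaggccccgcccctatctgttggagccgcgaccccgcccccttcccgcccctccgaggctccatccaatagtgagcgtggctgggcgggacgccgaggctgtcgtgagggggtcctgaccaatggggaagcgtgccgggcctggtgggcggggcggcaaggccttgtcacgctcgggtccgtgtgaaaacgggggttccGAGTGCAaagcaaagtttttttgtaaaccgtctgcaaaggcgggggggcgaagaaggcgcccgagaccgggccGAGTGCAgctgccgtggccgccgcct
SLC30A4, chr15:45522706-45523005: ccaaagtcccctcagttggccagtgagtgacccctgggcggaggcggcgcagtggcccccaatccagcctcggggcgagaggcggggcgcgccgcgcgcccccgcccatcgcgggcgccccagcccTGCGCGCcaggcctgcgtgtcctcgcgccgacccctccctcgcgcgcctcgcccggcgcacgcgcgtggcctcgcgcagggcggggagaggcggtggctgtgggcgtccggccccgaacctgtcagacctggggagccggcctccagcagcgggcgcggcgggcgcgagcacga
SLC39A8, chr4:102345433-102345732: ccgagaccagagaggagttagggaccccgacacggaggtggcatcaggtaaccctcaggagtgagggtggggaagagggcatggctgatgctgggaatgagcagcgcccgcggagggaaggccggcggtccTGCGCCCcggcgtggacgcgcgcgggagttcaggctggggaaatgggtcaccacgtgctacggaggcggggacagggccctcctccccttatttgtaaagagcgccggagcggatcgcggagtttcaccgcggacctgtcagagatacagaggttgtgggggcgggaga
SLC39A6, chr18:36129291-36129590: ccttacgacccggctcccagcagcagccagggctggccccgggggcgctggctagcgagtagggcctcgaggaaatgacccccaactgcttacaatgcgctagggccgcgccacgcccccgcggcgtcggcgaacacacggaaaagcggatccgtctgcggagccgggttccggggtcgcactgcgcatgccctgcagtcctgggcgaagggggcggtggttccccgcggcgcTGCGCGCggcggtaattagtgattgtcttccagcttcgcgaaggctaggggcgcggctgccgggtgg
The SLC30A1 window held 2 matches, both on the opposite strand, and the other 3 windows held 1 each. Of 35116 such windows of all genes, 29.6% held at least 1 match and 8.6% held at least 2. For SLC39A8 the other 2 of its 3 windows held none. SLC39A10 and SLC39A1 each had a match in 1 of 2 windows, and the windows of SLC39A7, SLC30A5 and SLC30A9 had no match to these letters.

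Levels were compared between genes as CPM per kb of exonic length, with lengths from GENCODE v44. In parental cells the order was SLC39A6 (82.6 ± 2.08, SD, n = 3 here and below), SLC39A7 (54.3 ± 0.882), SLC39A14 (30.8 ± 1.19), SLC30A9 (25.8 ± 0.939), SLC30A4 (17.2 ± 0.244), SLC30A5 (16.2 ± 1.09), SLC39A8 (12.1 ± 0.809), SLC39A10 (7.04 ± 0.283), SLC30A1 (5.90 ± 0.282) and SLC39A1 (0.681 ± 0.0824). Only SLC30A4 and SLC30A5, among neighbours in this order, overlapped in their libraries. In LNCaP-enzaR the order was SLC39A6 (53.6 ± 5.33), SLC39A8 (45.0 ± 2.84), SLC39A7 (38.9 ± 3.18), SLC30A4 (31.4 ± 2.56), SLC30A9 (26.3 ± 2.36), SLC30A5 (22.1 ± 2.31), SLC39A14 (17.8 ± 0.425), SLC30A1 (9.05 ± 0.507), SLC39A10 (6.09 ± 0.517) and SLC39A1 (0.743 ± 0.10). Here the neighbours SLC39A8 and SLC39A7, and SLC30A9 and SLC30A5, overlapped. The place of SLC39A8 depended on the length used, because it has 8482 exonic bases over all transcripts and 3152 in the canonical transcript. Per kb of canonical transcript, SLC39A8 was the fourth member in parental cells (32.6 ± 2.18) and the first in LNCaP-enzaR (121 ± 7.66), above SLC39A7 (64.5 ± 5.27) and SLC39A6 (55.4 ± 5.50).

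SLC39A8 (ZIP8, ENSG00000138821.14, chromosome 4, 102251080 to 102431258, GRCh38), a cell surface carrier that takes up zinc, manganese, iron and cadmium, was the member with the largest difference. Parental libraries 1 to 3 held 107, 107 and 94.7 CPM, and LNCaP-enzaR libraries 1 to 3 held 356, 404 and 385 CPM. Every LNCaP-enzaR library was above every parental one. This was a log2 fold change of 1.89 (standard error, SE, 0.0662, adjusted p = 8.12e-12, edgeR quasi-likelihood test), or 3.72-fold, and 1.95 without LNCaP-enzaR replicate 1. It was the only member past a fold of 2.

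SLC39A14 (ZIP14, ENSG00000104635.15, chromosome 8, 22367278 to 22434129) is the closest relative of ZIP8 and carries the same metals, including iron not bound to transferrin. Its levels ran the other way, with 220, 215 and 204 CPM in the parental libraries and 124, 125 and 120 CPM in LNCaP-enzaR. The lines were separated by far more than the spread within either. On the log2 scale the difference was −0.79 (SE 0.0538, adjusted p = 9.08e-09, edgeR), and it stayed past the threshold under each other scaling and filter and without any 1 library.

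Taken as a ratio within each library, SLC39A8 over SLC39A14 was 0.484, 0.496 and 0.464 in parental and 2.87, 3.23 and 3.22 in LNCaP-enzaR libraries. SLC39A14 was thus the more counted of the pair in all 3 parental libraries and SLC39A8 in all 3 LNCaP-enzaR libraries. The ratio differed 6.44-fold (two-sided exact permutation test, p = 0.10, the smallest p that 3 against 3 libraries can give, adjusted p = 0.10 over 4 pairs).

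SLC39A6 (ZIP6, ENSG00000141424.13, chromosome 18, 36108531 to 36129385) is a cell surface importer that pairs with ZIP10 and was first described as an oestrogen-regulated gene, LIV-1. It was at 312, 302 and 297 CPM in parental and at 177, 216 and 200 CPM in LNCaP-enzaR libraries. Replicate 1 was the lowest of the LNCaP-enzaR libraries, and the lines did not overlap. With −0.62 on the log2 scale (SE 0.0673, adjusted p = 1.42e-06, edgeR), SLC39A6 lay just past the fold limit. Without LNCaP-enzaR replicate 1 the value was −0.54, which is short of that limit, with an adjusted p of 2.44e-12, and upper-quartile scaling gave −0.52.

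SLC39A10 (ZIP10, ENSG00000196950.14, chromosome 2, 195575977 to 195737702), the partner of ZIP6, held 50.2, 46.5 and 49.4 CPM in parental and 38.3, 45.4 and 42.7 CPM in LNCaP-enzaR libraries. The lines stood close together without overlapping. SLC39A10 differed by −0.21 on the log2 scale (SE 0.0711, adjusted p = 0.0183, edgeR, 0.00636 to 0.194 over the alternatives), under the fold limit. The ratio of SLC39A6 to SLC39A10 was 6.22, 6.50 and 6.02 in parental and 4.62, 4.76 and 4.68 in LNCaP-enzaR libraries, a fold of 0.75 (two-sided exact permutation test, p = 0.10, adjusted p = 0.10).

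SLC39A7 (ZIP7, ENSG00000112473.18, chromosome 6, 33200445 to 33204439) releases zinc from the endoplasmic reticulum and Golgi into the cytosol. Its parental libraries held 213, 219 and 220 CPM, and its LNCaP-enzaR libraries held 170, 151 and 146 CPM. No library of one line reached the other. At −0.48 on the log2 scale (SE 0.0617, adjusted p = 7.96e-06, edgeR), or 1.40-fold, it was short of the fold limit, also under each other scaling and filter and without any 1 library. The kinase CK2 opens ZIP7 by phosphorylation, and its genes CSNK2A1, CSNK2A2 and CSNK2B had log2 fold changes of −0.28, −0.28 and −0.27, none past the limit. Of SLC39A7's exonic bases, 9.02% also lie in exons of RXRB on the opposite strand.

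SLC39A1 (ZIP1, ENSG00000143570.19, chromosome 1, 153959099 to 153968184) is regarded as the main zinc importer of normal prostate epithelium. It was the least counted member, with 239, 211 and 159 counts in parental and 251, 205 and 230 counts in LNCaP-enzaR libraries. In CPM this was 2.58, 2.32 and 2.02 against 2.91, 2.32 and 2.32, and the lines overlapped. The 95% interval of the log2 fold change, −0.22 to 0.46 around 0.12 (adjusted p = 0.522, edgeR), includes 0 and lies within 1.5-fold on either side.

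How many reads SLC39A1 could receive depends on the annotation. In GENCODE v44, 69.1% of its 3388 exonic bases also lie in exons of another gene, and all of the coding bases of its canonical transcript (100%) do. A readthrough gene on the same strand, ENSG00000285779, covers 60.8% of the exonic bases, and CREB3L4 on the opposite strand covers 8.26%. Among the rows analysed here ENSG00000285779 has none. Here and below a missing row may be an uncounted or an unannotated gene, since every row held at least 1 count in total. How the counting treated reads that fall in exons of 2 genes is not given in the sources used here. Divided by the 1047 exonic bases that no other gene shares, SLC39A1 was at 2.21 ± 0.267 CPM per kb in parental and 2.40 ± 0.325 in LNCaP-enzaR, still the lowest member. The part of the overlap in this low level was not tested, and the count is uncertain as a measure of ZIP1 transcript. For the other members at most 9.78% of the exonic bases were shared, and SLC39A10, SLC39A14, SLC30A1 and SLC30A9 shared none.

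**Figure D2:**
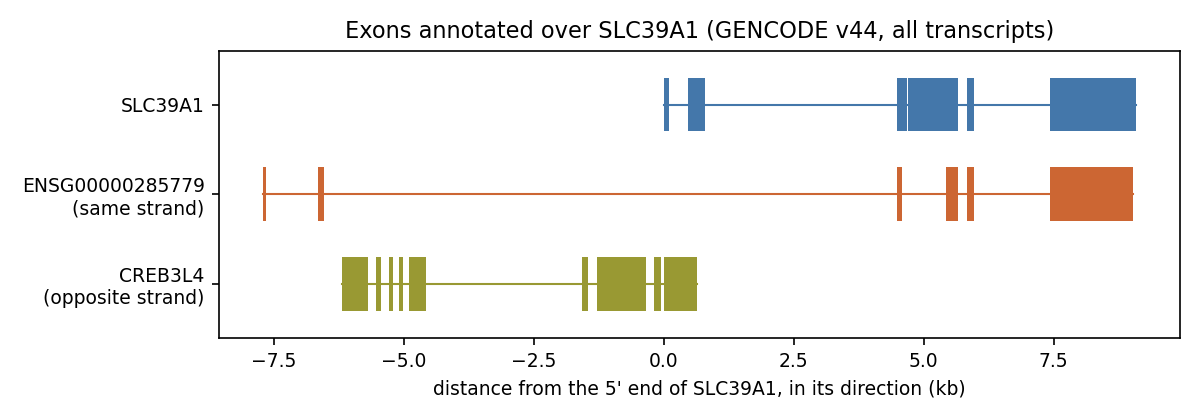
Exons of all annotated transcripts (boxes) over SLC39A1, by distance in kb from its 5′ end and in its direction of transcription, for SLC39A1, the readthrough gene ENSG00000285779 on the same strand and CREB3L4 on the opposite strand. The exons at the 3′ side of SLC39A1 lie under the readthrough gene, which covers 60.8% of its exonic bases, and its first exons lie opposite CREB3L4.

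SLC30A4 (ZnT4, ENSG00000104154.7, chromosome 15, 45479606 to 45522755), which loads zinc into secretory and endolysosomal vesicles, was the exporter with the largest difference. Levels were 136, 137 and 140 CPM in parental and 228, 265 and 262 CPM in LNCaP-enzaR libraries. All 3 LNCaP-enzaR libraries lay above the parental ones, with replicate 1 the lowest. The difference came to 0.87 on the log2 scale (SE 0.0625, adjusted p = 1.75e-08, edgeR), or 1.83-fold, and 0.94 without LNCaP-enzaR replicate 1. Exons of HMGN2P46 and SLC30A4-AS1 on the opposite strand overlap 2.68% and 1.73% of its exonic bases.

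SLC30A1 (ZnT1, ENSG00000170385.10, chromosome 1, 211571568 to 211579161) is the zinc exporter of the cell surface and a textbook target of MTF1. Its promoter window matches the letters of the element's core in the 2 places shown above, 49 bases before and 25 bases into the gene. Binding by MTF1 was not tested. SLC30A1 was at 36.6, 33.3 and 34.4 CPM in parental and at 50.1, 56.0 and 53.9 CPM in LNCaP-enzaR libraries, with no overlap. The log2 fold change of 0.62 (SE 0.0664, adjusted p = 1.33e-06, edgeR), or 1.53-fold, was close to the fold limit. It was 0.58 and short of that limit with library totals in place of TMM, without parental replicate 2 and without LNCaP-enzaR replicate 2, and 0.67 without LNCaP-enzaR replicate 1.

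SLC30A5 (ZnT5, ENSG00000145740.19, chromosome 5, 69093949 to 69131069) works with ZnT6 in the early secretory pathway, where the pair supplies zinc to enzymes such as alkaline phosphatases. Parental libraries held 92.5, 90.4 and 81.4 CPM and LNCaP-enzaR libraries 106, 130 and 125 CPM. The lines did not overlap, and replicate 1 was again the lowest LNCaP-enzaR library. The difference, 0.45 on the log2 scale (SE 0.0768, adjusted p = 0.000128, edgeR), was under the fold limit, and was 0.54 without that replicate. The long noncoding gene ENSG00000248664 on the opposite strand shares 9.78% of its exonic bases.

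The partner SLC30A6 (ZnT6) was at 55.0 ± 2.99 CPM in parental and 62.4 ± 4.94 CPM in LNCaP-enzaR, and its libraries overlapped at a log2 fold change of 0.18 (adjusted p = 0.0324, edgeR). The ratio of SLC30A5 to SLC30A6 was 1.62, 1.61 and 1.58 in parental and 1.86, 1.96 and 1.95 in LNCaP-enzaR libraries. SLC39A7 over SLC30A5, which sets release from the early secretory pathway against loading of it, was 2.31, 2.42 and 2.70 in parental and 1.60, 1.16 and 1.17 in LNCaP-enzaR libraries. Both ratios separated the lines, by folds of 1.20 and 0.52 (two-sided exact permutation test, p = 0.10 each, adjusted p = 0.10). LNCaP-enzaR replicate 1 was the nearest to the parental libraries in the second of them.

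SLC30A9 (ZnT9, ENSG00000014824.14, chromosome 4, 41990502 to 42090461), which exports zinc from mitochondria, was at 192, 187 and 179 CPM in parental and at 170, 204 and 193 CPM in LNCaP-enzaR libraries. The lines overlapped. The log2 fold change was 0.02 (95% interval −0.12 to 0.17, adjusted p = 0.762, edgeR), and 0.10 with an adjusted p of 0.0310 without LNCaP-enzaR replicate 1. The sign turned without LNCaP-enzaR replicate 2 (−0.03) and with library totals in place of TMM (−0.01).

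**Figure D3:**
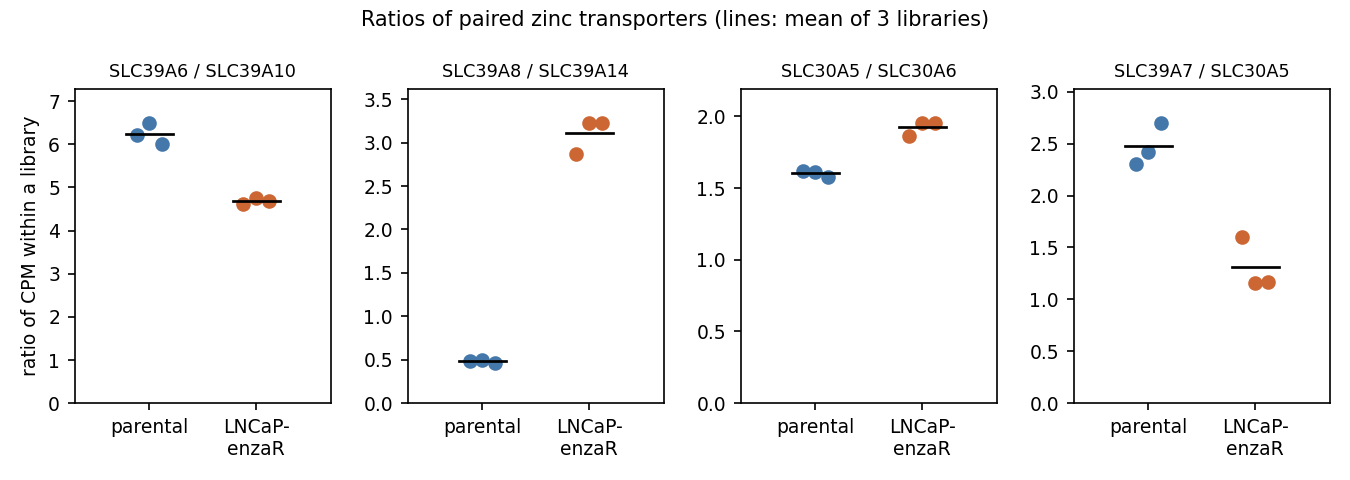
Ratio of the CPM of paired transporters within each library, 1 panel per pair with its own axis from 0, for 3 parental (blue) and 3 LNCaP-enzaR (orange) libraries with a line at the mean. The lines do not overlap in any of the 4 panels, and SLC39A8 over SLC39A14 runs from 0.464 to 0.496 in parental and from 2.87 to 3.23 in LNCaP-enzaR.

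Summed over the 6 importers, CPM was 868 to 906 in parental and 868 to 943 in LNCaP-enzaR libraries, and the lines overlapped. Summed over the 4 exporters it was 435 to 458 in parental and 555 to 655 in LNCaP-enzaR. Per kb of exonic length, the importers summed to 184 to 191 in parental and 157 to 169 in LNCaP-enzaR, and the exporters to 63.1 to 66.9 and 80.1 to 94.8. Per kb of canonical transcript the direction of the importer sum turned, to 259 to 268 in parental and 268 to 288 in LNCaP-enzaR, and that of the exporters did not (74.9 to 79.7 and 94.8 to 112). The makeup of the importer sum differed with either length. Per kb of exonic length, SLC39A8 made up 6.06% to 6.69% of it in parental and 26.7% to 28.3% in LNCaP-enzaR, and SLC39A6 43.7% to 44.5% and 30.6% to 34.6%. Per kb of canonical transcript these shares were 11.6% to 12.7% and 42.1% to 44.7% for SLC39A8, and 32.0% to 32.7% and 18.5% to 21.0% for SLC39A6. SLC30A4 made up 25.4% to 27.7% of the exporter sum in parental and 34.9% to 35.7% in LNCaP-enzaR by exonic length. These sums are descriptions of transcript counts and were not tested.

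The rest of the human family was read beside the members. Of 25 genes (SLC39A, SLC30A and the zinc efflux protein TMEM163), 24 had a row and 21 passed the filter. In LNCaP-enzaR 7 of the 21 were higher, 3 were lower and 11 were not past the threshold, members included, against 23.3% higher and 19.5% lower among all genes. Of the 6 tested importers that are not members, 3 were higher and 0 lower, with a median log2 fold change of 0.39. SLC39A12 has no row among those analysed here, and SLC39A5, SLC30A2 and SLC30A8 were too low to test.

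Among the other importers, SLC39A11 (ZIP11), a Golgi and nuclear zinc carrier, rose from 18.1 ± 0.597 to 42.1 ± 1.02 CPM (log2 fold change 1.22, adjusted p = 6.19e-10, edgeR). SLC39A13 (ZIP13), which moves zinc out of vesicles of the secretory pathway, rose from 10.2 ± 1.08 to 17.6 ± 2.21 CPM (0.79, adjusted p = 1.07e-05). SLC39A2 (ZIP2) was also higher, but at 0.106 ± 0.0212 and 0.492 ± 0.0346 CPM it was scarcely expressed in either line (2.19, adjusted p = 0.000231). SLC39A9 (ZIP9), a Golgi and surface zinc carrier that has also been described as a membrane androgen receptor, was at 179 ± 1.03 and 148 ± 7.27 CPM, a log2 fold change of −0.28 that was under the fold limit (adjusted p = 0.000446). SLC39A3 (ZIP3) and SLC39A4 (ZIP4), surface importers, had log2 fold changes of −0.04 and −0.01 with overlapping libraries, which turned to 0.06 and 0.09 under upper-quartile scaling.

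Among the other exporters, SLC30A10 (ZnT10), which exports manganese from the cell, fell from 2.67 ± 0.448 to 0.475 ± 0.159 CPM (log2 fold change −2.49, adjusted p = 3.61e-07, edgeR). SLC30A3 (ZnT3), the carrier of synaptic vesicles, was higher at very low levels, 0.109 ± 0.0772 against 0.541 ± 0.102 CPM (2.29, adjusted p = 0.000633, and 3.04 without parental replicate 2). SLC30A7 (ZnT7) of the Golgi and TMEM163 had log2 fold changes of −0.12 and 0.29 (adjusted p = 0.210 and 0.299), with overlapping libraries.

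**Figure D4:**
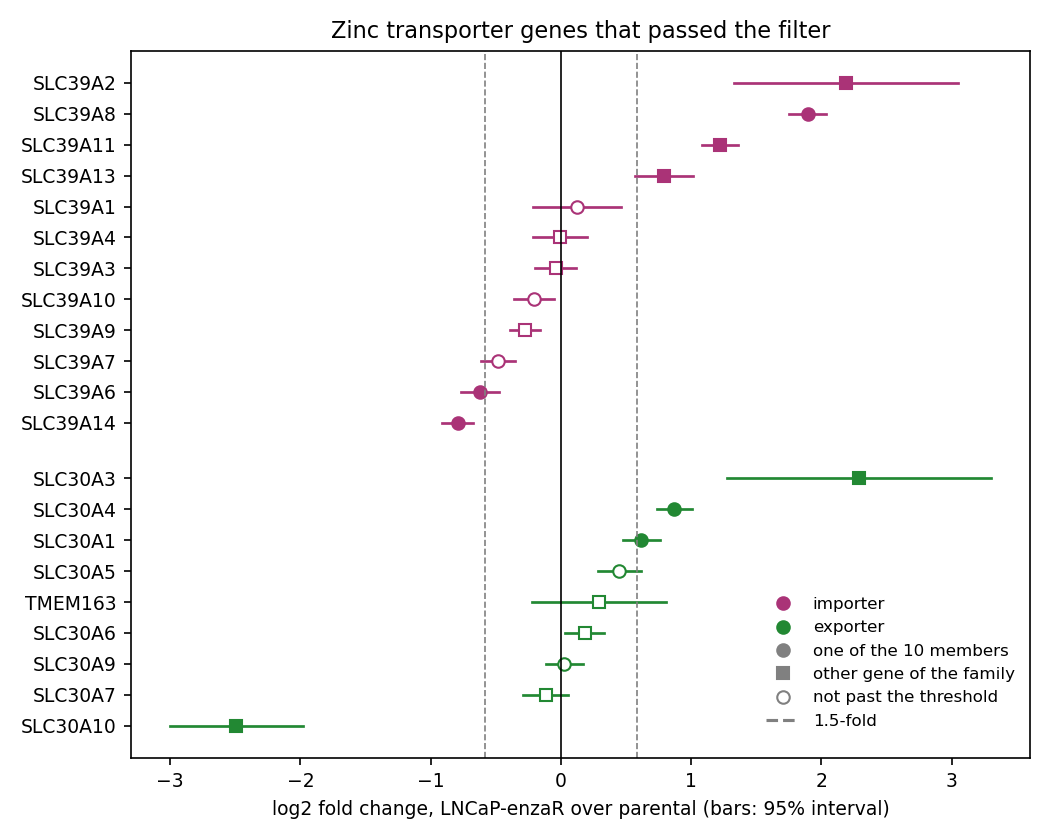
Log2 fold change of LNCaP-enzaR over parental for the 21 family genes tested, importers above and exporters below, with 95% intervals as bars. Filled points are past the threshold, circles are the 10 members, and dashed lines mark 1.5-fold. Among genes past the threshold, the intervals of SLC39A6 (−0.62), SLC30A1 (0.62) and SLC39A13 (0.79) cross a dashed line. Among the rest, those of SLC39A7 (−0.48), SLC30A5 (0.45) and TMEM163 (0.29) do. The interval of SLC39A8 (1.89) is far from the dashed lines.

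Zinc inside the cell is sensed by MTF1 and bound by metallothioneins, small cysteine-rich proteins whose genes MTF1 induces. MTF1 was at 48.3 ± 1.59 CPM in parental and 47.5 ± 1.26 CPM in LNCaP-enzaR (log2 fold change −0.02, adjusted p = 0.742, edgeR). Of 14 genes listed for sensing and buffering, 7 had a row and were tested. Of these 1 was higher and 3 (MT1F, MT1G and MT1X) were lower, against 23.3% and 19.5% of all genes. The median log2 fold change of the list was −0.02, against 0.01 over all genes. MT1G fell from 2098, 2011 and 1659 counts in the parental libraries to 6, 3 and 2 counts in LNCaP-enzaR (log2 fold change −9.04, adjusted p = 3.55e-14). MT1X fell from 23.2 ± 0.699 to 10.8 ± 0.496 CPM (−1.10, adjusted p = 7.64e-09). Chosen after their values were seen, MT2A, the most abundant of them, had overlapping lines at 67.0 ± 3.54 and 76.3 ± 13.4 CPM, and the gene higher was ZNF658, a zinc-responsive repressor, at 6.79 ± 0.414 and 11.2 ± 1.42 CPM. Metallothionein genes are near-identical copies, so their counts may be split between them. SLC30A1, another target of MTF1, was higher. Of the 5 metallothionein genes tested, 3 were lower and 2, MT2A among them, were not past the threshold. The activity of MTF1 was not tested.

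ZIP8 and ZIP14 also carry iron and manganese, so the genes that handle those metals were read beside them. Of 14 iron and manganese genes listed and tested, 7 were lower and 2 (STEAP2 and FTL) higher, against 19.5% and 23.3% of all genes, with a median log2 fold change of −0.64. Without LNCaP-enzaR replicate 1, 6 were lower and 1 higher, since STEAP1 (−0.54) and FTL (0.58) were short of the fold limit, and under upper-quartile scaling STEAP1 (−0.52) and ATP2C1 (−0.55) were. SLC11A2 (DMT1), which brings iron into the cytosol, fell from 79.5 ± 1.67 to 34.9 ± 1.66 CPM (−1.19, adjusted p = 4.17e-10, edgeR), and STEAP3, an endosomal ferrireductase, fell from 33.6 ± 0.737 to 12.9 ± 1.04 CPM (−1.38, adjusted p = 8.43e-10). TFRC, the transferrin receptor, named after its values were seen, fell from 502 ± 12.2 to 238 ± 16.9 CPM (−1.07, adjusted p = 9.54e-10).

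The remaining lists were short. Among 8 genes of citrate metabolism, 7 were tested and 2 were higher (23.3% of all genes were), ACO1, the cytosolic aconitase that also acts as an iron sensor (51.0 ± 0.553 to 96.2 ± 6.71 CPM, log2 fold change 0.91, adjusted p = 9.95e-09, edgeR), and IDH2, a mitochondrial isocitrate dehydrogenase (234 ± 9.29 to 427 ± 36.8 CPM, 0.87, adjusted p = 2.46e-08). The median of the list was 0.45. Of 10 zinc enzymes that are loaded in the secretory pathway, 3 were tested, with a median of −0.43. Of these 1 was higher and 1 (ENPP3, under 1 CPM in both lines) lower, against 23.3% and 19.5% of all genes. The higher one was CA12, a surface carbonic anhydrase, which rose from 32.9 ± 0.203 to 83.5 ± 0.859 CPM (1.34, adjusted p = 5.21e-11).

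**Figure D5:**
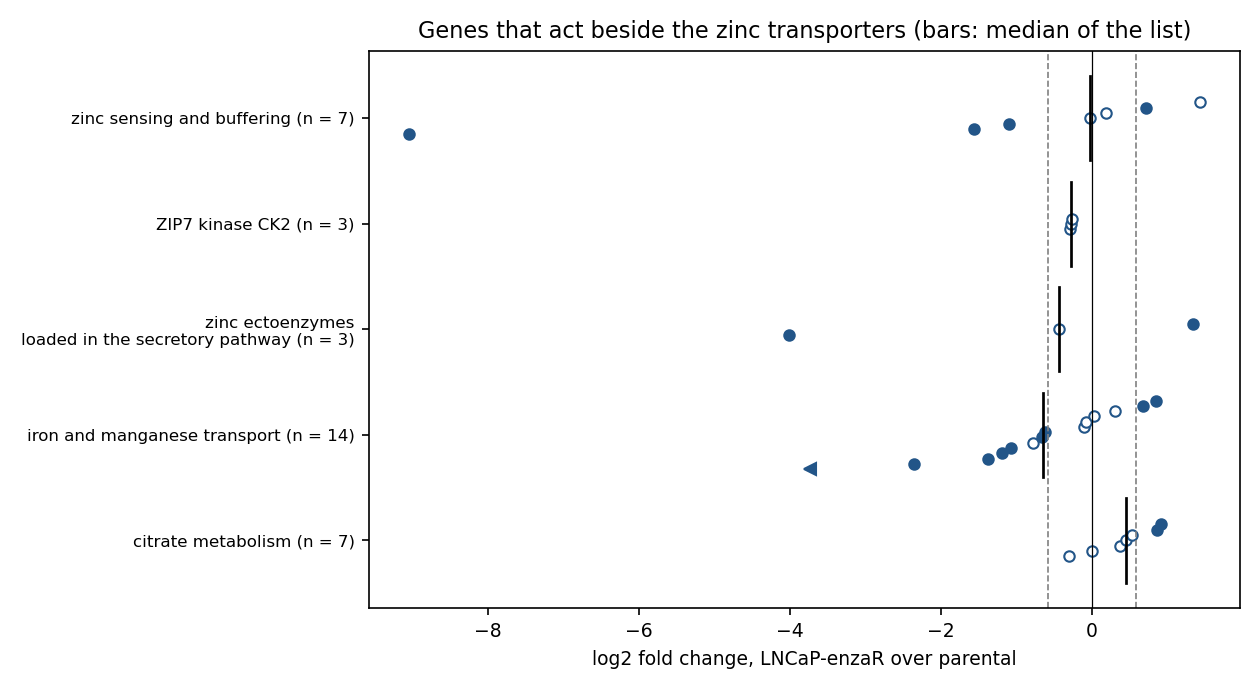
Log2 fold change of LNCaP-enzaR over parental for each tested gene of 5 lists, with filled points past the threshold, open points not past it, a bar at each list's median and dashed lines at 1.5-fold. The triangle is SLC40A1, listed at 0 counts in all 3 LNCaP-enzaR libraries and drawn at its bound (at least 13.3-fold lower), and the lowest point is MT1G (−9.04).

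The 5 nearest tested protein-coding genes on each side of a member were read to see whether it moved with its neighbourhood. These 10 neighbours spanned from 264 kb around SLC39A1 to 5919 kb around SLC39A10, so some lie far from the member. Of all genes tested, 23.3% were higher and 19.5% lower. The 10 neighbours of SLC39A10 had a median log2 fold change of −1.09, and none of them differed less than SLC39A10 itself (−0.21). Those of SLC30A4 had a median of 0.67, and 5 were higher and 2 lower. Around SLC39A14 the median was 0.49, opposite to that gene's −0.79, and around SLC39A7 it was 0.37, opposite to its −0.48. Of the neighbours of SLC39A8, 8 of 10 differed less than it did, and their median was 0.40. The same count was 8 of 10 for SLC39A6 (median −0.16) and 7 of 10 for SLC39A14. It was 2 of 10 for SLC30A1 (median 0.35, 5 higher and 3 lower) and 3 of 10 for SLC30A4. The share of all genes tested that differed less than each member was not computed. These counts therefore do not set a member apart from its neighbours. With a fold of at least 2, 5561 of the 19711 genes tested were past the threshold. Around SLC39A1, SLC30A5 and SLC30A9 the medians were −0.14, −0.25 and 0.37.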

How the data were processed

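RNA from 6 flasks, 3 per line, was sequenced as polyadenylated paired-end libraries. The authors removed adapters (Cutadapt), mapped the reads to GRCh38.p13 (STAR) with a GENCODE annotation, and obtained counts per gene from featureCounts. Their deposited values are raw counts without normalization, 77759122 to 98616465 per library. Strand setting and treatment of reads over several genes are not given in the sources used here. Groups came from the sample titles.

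Counts were analysed with edgeR 4.0.16 (R 4.3.3) using filterByExpr, which kept 19711 of 35554 genes, TMM scaling and the robust quasi-likelihood test with Benjamini-Hochberg adjustment. The thresholds, an adjusted p of 0.05 and 1.5-fold, follow the study's methods, which used DESeq2 (1.42.0 here, an alternative). Where a line held at most 3 counts in every library a bound against 3 counts is given, which covers counting error only. Lengths and exon overlaps came from GENCODE v44, a later release than that used for counting, in which 21 of 24 family genes had the same position. The members and gene lists were chosen with earlier results of these data known. Named beyond the members were all family genes tested, the partners in the pairs and, in each pathway list, the 2 genes with the smallest p among those past the threshold with a mean of at least 5 CPM. MTF1, the CK2 genes, MT1F, MT2A, ZNF658, TFRC, STEAP1, STEAP2, FTL, ATP2C1, ENPP3 and SLC40A1 were named after their values were seen. A further listed gene is not reported here. Alternatives were other scalings, filters and thresholds, the replicate block and leaving out each library, and other lengths were added after the data were seen.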

Additional observations from a re-analysis of the deposited data

How the results depend on the processing

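Of the 10 members, 5 were past the threshold in the reported analysis and also with DESeq2, RLE size factors, without mitochondrial genes, with protein-coding genes alone, with no filter and with a minimum of 10 counts per library. Library totals and upper-quartile scaling gave 4, since SLC30A1 and SLC39A6 respectively dropped under the fold limit, and leaving out 1 library gave 4 to 5. Without a minimum fold 8 members passed, and with a fold of at least 2 only 1 did. Over the family the count was 10, 8 to 11 with the other filters, 15 without a minimum fold and 5 with a fold of at least 2. Over the genes of the pathway lists it was 17, 26 and 10 in that order of fold limits, and 15 to 18 leaving out 1 library. The fit with a replicate block gave 5, 10 and 17, as without it, and same-numbered samples shared only a number, since their deviations from the group means correlated at −0.21, 0.01 and −0.12. Upper-quartile scaling moved the median of all genes by 0.10 (log2) and raised the share of calls that were higher to 60.9%, from 54.5%. No member reversed a call. Levels per kb, their order and the direction of the importer sum moved with the length used, as given there. Depth limits SLC39A2 and SLC30A3 most, the tested family genes with the fewest counts.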
